A study of Rattus norvegicus with 25 samples.

Results

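The miR-10, miR-99 and miR-100 miRNAs of rat sperm are described here from small RNA (smRNA) sequencing of 25 libraries. The members are all rows of the miRNA count matrix for the hairpins miR-10a, miR-10b, miR-99a, miR-99b and miR-100, both arms included, which gave 10 rows of 562. Of these, 8 passed the filter on low counts and were tested, together with 309 other miRNAs, 317 in all. The rows of the 3p arms of miR-99a and miR-100 did not pass it. The members were taken by name alone.

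The sperm came from Sprague–Dawley F0 males that had pressed a lever for intravenous morphine or, in the controls, for intravenous saline. It was taken from the cauda epididymis with a double swim-up, either when self-administration ended (F0_SAL, n = 7, and F0_MOR, n = 7) or after 90 days of abstinence (F0_ABS-SAL, n = 5, and F0_ABS-MOR, n = 6). These males formed a cohort separate from the breeders of the study, and no sample label gives an age. Males of the abstinent groups were older at collection and farther from behavioural testing, and the preparation batch of the libraries is not given in the sources used here, so that timepoint, age and batch cannot be told apart. The labels call the samples biological replicates.

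Mature miRNAs are short RNAs cut from the 5p or 3p arm of a hairpin. They guide Argonaute proteins to messenger RNAs that pair with the seed, the bases near the 5′ end of the miRNA, and lower the output of those messages. The miR-10 and miR-99/100 miRNAs form an old animal family. The miR-10 genes lie among the Hox genes, which set position along the body axis, and the miR-99 and miR-100 genes lie in small clusters with let-7 and miR-125 genes. In the RefSeq annotation of GRCr8, used only for neighbours, Mir10a lay among Hoxb genes and Mir10b among Hoxd genes. Mir99a had Mirlet7c1 and Mir125b2 as neighbours, Mir99b had Mirlet7e and Mir125a, and Mir100 had Mirlet7a-2 and Mir125b1. Cauda sperm carry miRNAs made in the testis and others acquired from the epididymis.

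The mature sequences of 9 of the 10 rows were found in the RefSeq table for GRCr8, and rno-miR-99a-5p was not matched. The following 6 are the matched 5p arms and the 3p arms that differed between timepoints, written 5′ to 3′ with the seed (bases 2 to 8) in capitals.
rno-miR-10a-5p: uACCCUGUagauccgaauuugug
rno-miR-10b-5p: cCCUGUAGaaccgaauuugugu
rno-miR-99b-5p: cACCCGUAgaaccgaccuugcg
rno-miR-100-5p: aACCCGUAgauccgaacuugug
rno-miR-10b-3p: aCAGAUUCgauucuaggggaa
rno-miR-99b-3p: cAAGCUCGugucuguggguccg

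Of the 4 printed 5p arms, miR-99b-5p and miR-100-5p shared the seed ACCCGUA, and they were the 2 rows with it among the 520 matrix rows that had a sequence. The listed miR-10b-5p starts at position 3 of miR-10a-5p, so that its bases 2 to 8 are CCUGUAG and not ACCCUGU. Aligned at that start, the miR-10 sequences were identical at 20 of 21 positions, with 1 substitution, U12A, where the position is counted from the 5′ end of miR-10a-5p. The authors' alignment allowed 1 mismatch in its seed region. Reads of miR-10a-5p and miR-10b-5p could thus have been split between their rows or counted in both. The values of the pair are uncertain to that extent. Between miR-100-5p and miR-99b-5p, 18 of 22 positions were identical. The mature miR-99a-5p and miR-100-5p are near-identical too, so that their rows could also have shared reads. This was not checked, as miR-99a-5p was not matched, and their values are uncertain to that extent.

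Library totals ran from 1032386 to 3203211 miRNA reads. Levels are given as CPM, counts per 1000000 reads of the library size after TMM scaling, and 3 counts, the limit that a count of 0 allows, came to 0.959 to 3.14 CPM depending on the library. This limit covers counting error only. The labelled cell type was checked against 10 male germ-cell miRNAs, among them miR-34c-5p, which were all detected and summed to 421499 to 766592 CPM in F0_SAL and 285649 to 410238 CPM in F0_ABS-SAL. In F0_MOR this sum ran from 347214 to 526379 CPM, and in F0_ABS-MOR from 197731 to 450672 CPM. On this scale the germ-cell sum was therefore lower in every F0_ABS-SAL library than in every F0_SAL library. The separation depends on the scaling. As a raw share of miRNA reads, miR-34c-5p ran from 35.0% to 53.6% in F0_SAL and from 26.1% to 41.1% in F0_ABS-SAL, which overlap. One F0_ABS-SAL library, R by its column letter, stood apart with 81478 CPM of muscle miRNAs against 28774 CPM in the next of its group. The calls of members in saline males are given with and without it. Calls of cell type markers, cluster partners and other Hox cluster miRNAs are given only with it. In bulk samples, fewer cells of a type and less RNA per cell cannot be told apart.

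The family made up a sizeable part of sperm miRNA, and its share was higher in the abstinent libraries. The 10 rows together held 3.46% ± 1.03 (SD, n = 7) of the miRNA reads of F0_SAL and 4.36% ± 1.05 (SD, n = 7) of those of F0_MOR. They held 7.09% ± 1.55 (SD, n = 5) in F0_ABS-SAL and 7.26% ± 2.11 (SD, n = 6) in F0_ABS-MOR. The F0_ABS-SAL libraries, from 5.48% to 8.93%, all lay above the F0_SAL libraries, from 2.52% to 4.92%. The F0_ABS-MOR libraries, from 5.47% to 10.5%, overlapped F0_MOR, from 3.33% to 6.60%, only through the F0_MOR library M, since the next one below it held 4.51%. These are raw shares of a total that also holds the germ-cell miRNAs, and they are given without a test. The lower germ-cell sum of F0_ABS-SAL was on CPM after TMM scaling, which is a different measure. On CPM after TMM scaling the sum of the 10 rows overlapped between timepoints. It ran from 31779 to 52103 CPM in F0_SAL and from 47033 to 86885 CPM in F0_ABS-SAL. In morphine males it ran from 34670 to 62585 CPM before and from 49983 to 82950 CPM after abstinence.

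**Figure D1:**
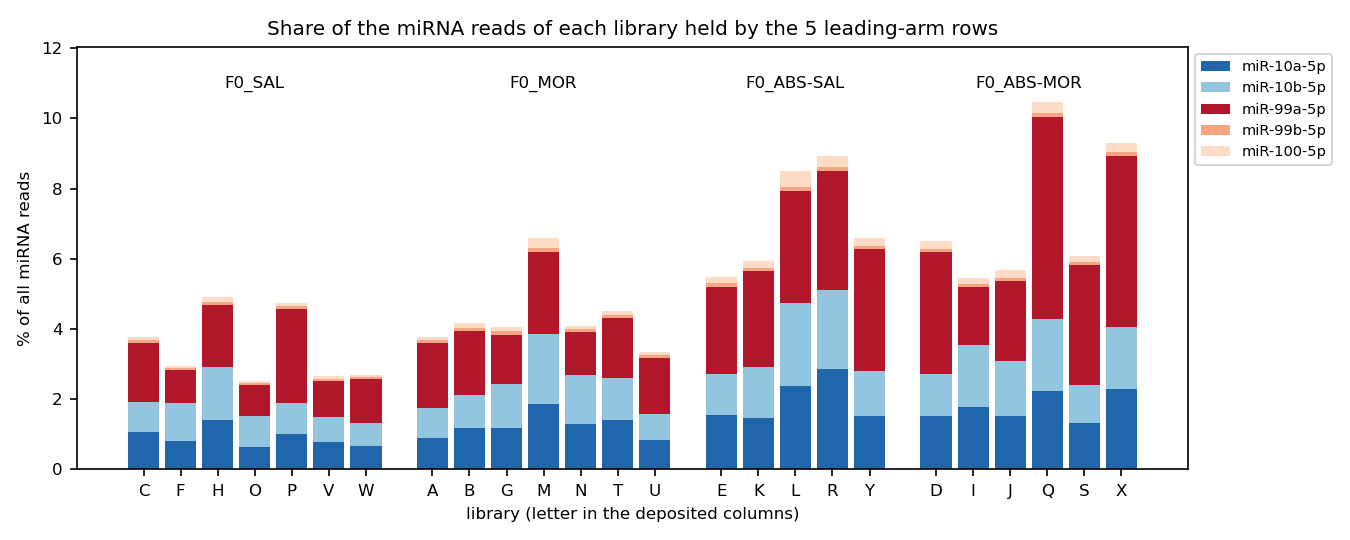
Bars give the percentage of all miRNA reads of each of the 25 libraries (letters on the x axis) held by the 5p rows of the family, stacked by row and set out by group. On these raw shares the F0_ABS-SAL bars are all taller than the F0_SAL bars, although the summed CPM of all 10 rows overlapped. The rows of miR-99a-5p, miR-10a-5p and miR-10b-5p fill most of each bar.

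Within the family, 3 rows were abundant and 2 far scarcer. Reads per miRNA need no correction for length, since each read stands for 1 whole mature miRNA, but the efficiency of ligation for each sequence was not measured. By mean CPM, miR-99a-5p ranked 8th of 562 rows in F0_SAL and 9th in F0_MOR, and 6th and 5th after saline and morphine abstinence. It was followed by miR-10a-5p and miR-10b-5p, which ranked 19th and 18th in F0_SAL and 10th and 11th in F0_ABS-SAL. The rows of miR-100-5p and miR-99b-5p ranked 66th and 67th in F0_SAL, and 40th and 66th in F0_ABS-SAL. In every group the means of miR-10a-5p and miR-10b-5p lay within 1 SD of each other, and in F0_SAL the same was true of miR-99b-5p and miR-100-5p. This SD is the spread over libraries. Because the rows were measured in the same libraries, it does not settle their order. The ratio of miR-10a-5p to miR-10b-5p within libraries is given below and was not tested against 1.

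The timepoint comparisons, F0_ABS-SAL vs F0_SAL and F0_ABS-MOR vs F0_MOR, address how sperm RNA differs between the end of self-administration and the abstinent collection. A difference was called when the edgeR adjusted p was under 0.1 and the log2 fold change exceeded 0.58 in either direction. Between saline males, 5 of the 8 rows tested were higher after abstinence and 0 were lower. They were miR-10a-5p, miR-10b-3p, miR-99a-5p, miR-99b-3p and miR-100-5p. Among all 317 miRNAs tested, 33.1% were called, 22.4% higher and 10.7% lower. The median log2 fold change of the 8 rows was 0.74, against 0.00 for all miRNAs tested. With libraries scaled by total count alone, the split over all miRNAs moved from 71 higher and 34 lower to 110 higher and 1 lower, with the median of all miRNAs at 0.39, and 7 of the 8 rows were called, miR-10a-3p and miR-10b-5p added. Without library R, 44 miRNAs were higher and 21 lower of 318 tested, and 3 of the 8 rows were called, miR-99a-5p, miR-99b-3p and miR-100-5p.

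Among morphine males, 2 of the 8 rows, miR-99a-5p and miR-100-5p, were higher after abstinence and 0 were lower, where 21.1% of all miRNAs were called, 11% higher and 10.1% lower. The median of the 8 rows was 0.50, against 0.00 for all. With total count alone the median of all miRNAs in this comparison lay at 0.18, and the split moved from 35 higher and 32 lower to 57 higher and 14 lower. With 1 TMM factor from miRNAs and other ncRNAs joined, the median was 0.11 and the split 56 higher and 18 lower. Either of these scalings called 3 of the 8 rows, miR-10a-3p added. Both timepoint comparisons use separate libraries, and neither shares a control with the other, but each shares a group with each treatment comparison below.

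Markers of other cell types differed with the timepoint as well, and the part of such cells in the results below was not tested. Among all miRNAs tested, 22.4% were called higher and 10.7% lower in saline males, and 11% and 10.1% in morphine males. In saline males, 4 of 10 germ-cell markers were lower after abstinence and 0 higher, while 4 of 6 epithelial, 2 of 2 endothelial and 3 of 4 muscle markers were higher and 0 lower. In morphine males, 0 of 10 germ-cell markers were called, 2 of 6 epithelial, 2 of 2 endothelial and 1 of 4 muscle markers were higher, and 3 of 3 erythroid markers were lower. Of 3 erythroid markers, 0 were called in saline males. Leukocyte markers gave 1 of 6 higher in saline males, and 1 higher and 1 lower in morphine males. Endothelial markers summed to 546 to 783 CPM in F0_SAL and 708 to 2821 CPM in F0_ABS-SAL, and to 583 to 732 CPM in F0_MOR and 1036 to 1457 CPM in F0_ABS-MOR. The sum of muscle markers was 13600 to 16717 CPM in F0_SAL and 17546 to 81478 CPM in F0_ABS-SAL. Muscle markers ran from 13025 to 17614 CPM in F0_MOR and from 15620 to 36208 CPM in F0_ABS-MOR. Epithelial markers summed to 6416 to 10606 CPM in F0_SAL and 8536 to 18840 CPM in F0_ABS-SAL. In morphine males they ran from 7373 to 11125 CPM before and from 8600 to 17040 CPM after abstinence. Erythroid markers ran from 948 to 2372 CPM in F0_MOR and from 308 to 1291 CPM in F0_ABS-MOR. The endothelial sum in morphine males and the muscle sum in saline males did not overlap between timepoints, while the other endothelial, muscle, epithelial and erythroid ranges given here did. No marker in the matrix was at 0 in every library.

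**Figure D2:**
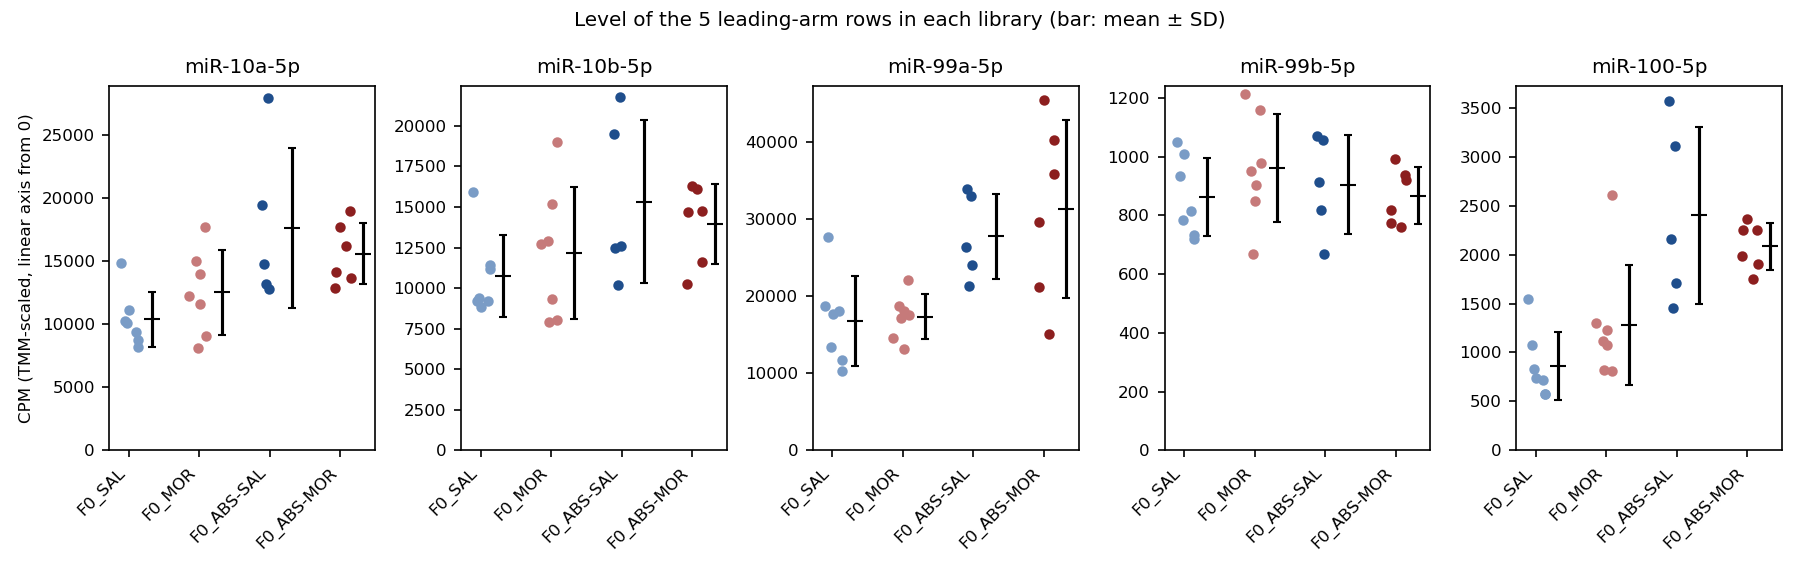
Points give the CPM of each library (y axis, linear from 0) for the 5p rows in the 4 groups (x axis), and the bar beside them gives the mean ± SD. All 5 rows have higher means in F0_ABS-SAL than in F0_SAL, by little for miR-99b-5p (905 against 863 CPM), which stays between 668 and 1213 CPM in all 25 libraries.

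Of all members, miR-100-5p differed most between timepoints in saline males, although reads shared with miR-99a-5p could affect its level. Its level in F0_SAL ran from 572 to 1546 CPM, with a median of 738 CPM. The F0_ABS-SAL libraries held 1457, 1710, 2158, 3111 and 3572 CPM. Thus 4 of the 5 abstinent libraries lay above every F0_SAL library, and the lowest lay under the highest F0_SAL library. The log2 fold change was 1.47 ± 0.27 (SE), a 2.78-fold difference, with an edgeR adjusted p of 0.000353, and it ranked 4th of 317 by p. In morphine males, F0_MOR ran from 808 to 2607 CPM with a median of 1113 CPM, and F0_ABS-MOR from 1750 to 2363 CPM with a median of 2120 CPM. The F0_MOR library M, at 2607 CPM, lay above all 6 abstinent libraries, and the other F0_MOR libraries, up to 1304 CPM, lay below all of them. With all libraries the log2 fold change was 0.70 ± 0.26 (SE; edgeR adjusted p = 0.0585), and without library M it was 0.97.

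The highest family member in sperm, miR-99a-5p, was higher after abstinence in both kinds of males. In F0_SAL it ran from 10260 to 27722 CPM, with a median of 17663 CPM. In F0_ABS-SAL it was at 21273, 24105, 26403, 32978 and 33957 CPM. One F0_SAL library, at 27722 CPM, overlapped the abstinent range. Between these groups the log2 fold change was 0.72 ± 0.23 (SE; edgeR adjusted p = 0.0219). In F0_MOR it ran from 13204 to 22105 CPM, with a median of 17547 CPM, and in F0_ABS-MOR from 15149 to 45507 CPM, with a median of 32779 CPM. There, 4 of 6 abstinent libraries lay above every F0_MOR library, and the log2 fold change was 0.85 ± 0.22 (SE; edgeR adjusted p = 0.0107), ranked 16th of 317 by p.

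Of the miR-10 5p rows, miR-10a-5p was called in saline males, and its call rested on 1 library. In F0_SAL, miR-10a-5p ran from 8195 to 14833 CPM, with a median of 10069 CPM. The F0_ABS-SAL libraries held 12804, 13173, 14766, 19434 and 27874 CPM, so that 2 of 5 lay above every F0_SAL library. They gave a log2 fold change of 0.76 ± 0.20 (SE; edgeR adjusted p = 0.00722). The highest value is that of library R, the library with the high muscle miRNAs, and without it the log2 fold change was 0.51 ± 0.19 (SE; edgeR adjusted p = 0.0666), which is not called. For miR-10b-5p, F0_SAL ran from 8844 to 15932 CPM with a median of 9395 CPM, and F0_ABS-SAL held 10221, 12490, 12604, 19529 and 21770 CPM. Its log2 fold change of 0.51 ± 0.22 (SE; edgeR adjusted p = 0.0710) was under the fold threshold. It passed, and was called, with total count alone (0.87; edgeR adjusted p = 0.00496) and with a minimum of 10 counts in every library (0.60; edgeR adjusted p = 0.0428). In other settings with all libraries it fell as low as 0.44. With 1 library left out it fell as low as 0.32, with an edgeR adjusted p of up to 0.316. Its highest abstinent value, 21770 CPM, is also that of library R. In morphine males the log2 fold changes were 0.32 ± 0.19 (SE; edgeR adjusted p = 0.254) for miR-10a-5p and 0.20 ± 0.21 (SE; edgeR adjusted p = 0.538) for miR-10b-5p, and neither was called. There, F0_MOR ran from 8113 to 17666 CPM and F0_ABS-MOR from 12867 to 18956 CPM for miR-10a-5p.

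The level of miR-99b-5p was not called different in any comparison. It averaged 863 ± 133 CPM (SD, n = 7) in F0_SAL against 905 ± 169 CPM (SD, n = 5) after saline abstinence, and 960 ± 184 CPM (SD, n = 7) in F0_MOR and 867 ± 96.4 CPM (SD, n = 6) after morphine abstinence. The ranges of all groups overlapped. Log2 fold changes were 0.07 ± 0.17 (SE; edgeR adjusted p = 0.779) in saline males and -0.15 ± 0.16 (SE; edgeR adjusted p = 0.553) in morphine males, the latter turning to 0.06 with total count alone. By mean share, miR-99b-5p made up 2.20% of the family reads in both nonabstinent groups, 1.44% in F0_ABS-SAL and 1.38% in F0_ABS-MOR.

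**Figure D3:**
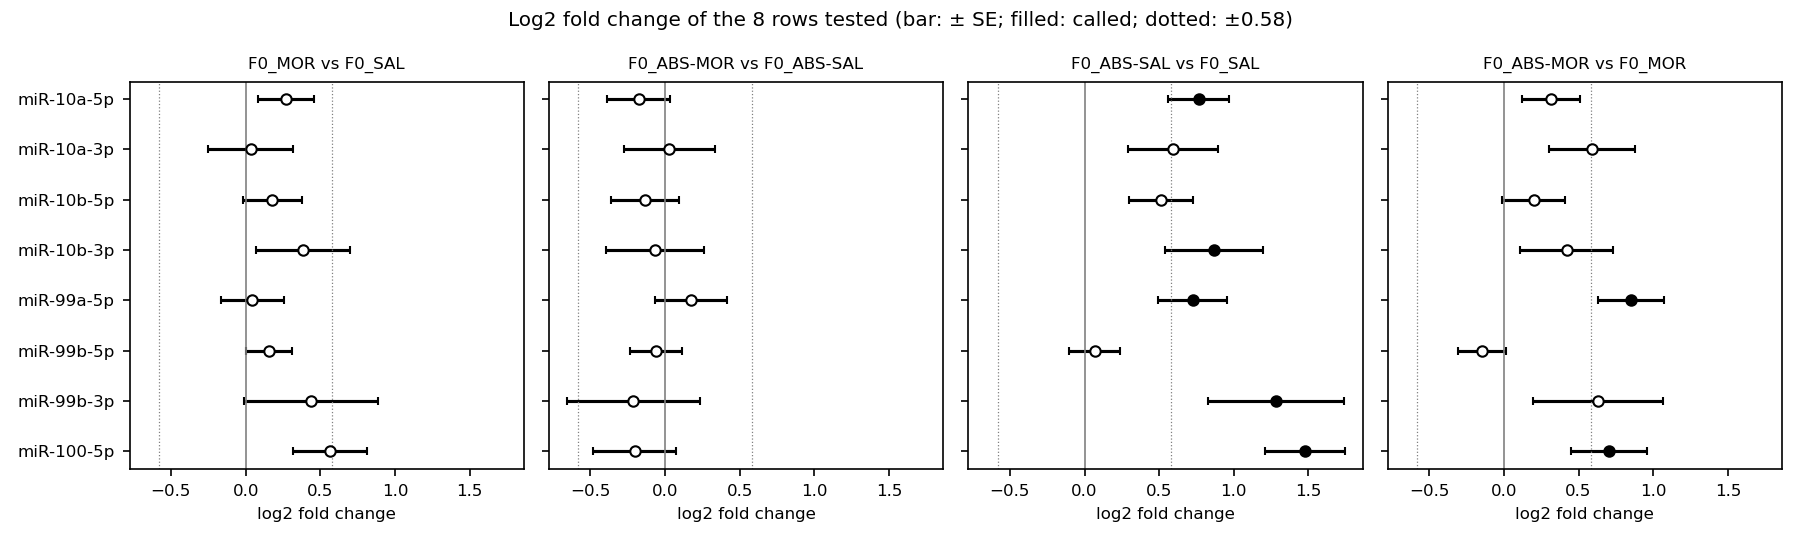
Points give the log2 fold change (x axis) of the 8 rows tested in the 2 treatment and the 2 timepoint comparisons, bars give ± SE, filled points are called and dotted lines mark ±0.58. In F0_ABS-SAL vs F0_SAL 5 points are filled, in F0_ABS-MOR vs F0_MOR those of miR-99a-5p and miR-100-5p are filled, and in both treatment comparisons none is.

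The 3p rows were far scarcer than the 5p rows of the same hairpins. For miR-99b, 134 reads of the 5p arm stood against each read of the 3p arm in F0_SAL and 106 in F0_MOR, but 54.7 in F0_ABS-SAL and 60.2 in F0_ABS-MOR. The counts behind miR-99b-3p were small, with 5 to 18 reads per library in F0_SAL and 22, 35, 39, 45 and 70 in F0_ABS-SAL. Each abstinent saline library thus held more reads than each F0_SAL library, although on the CPM scale the groups overlapped, 2.01 to 13.6 CPM against 11.6 to 23.0 CPM. The log2 fold change of miR-99b-3p was 1.28 ± 0.45 (SE; edgeR adjusted p = 0.0374) in saline males and 0.63 ± 0.43 (SE; edgeR adjusted p = 0.315) in morphine males.

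The 3p arm of miR-10b was called in saline males, on few reads. It held 6 to 28 reads per library in F0_SAL and 38 to 56 in F0_ABS-SAL, and its log2 fold change was 0.87 ± 0.33 (SE; edgeR adjusted p = 0.0479). The call was lost without library R (0.77; edgeR adjusted p = 0.132) and without library E (0.63; edgeR adjusted p = 0.141). The 3p arm of miR-10a had log2 fold changes of 0.59 ± 0.30 (SE; edgeR adjusted p = 0.128) in saline and 0.59 ± 0.29 (SE; edgeR adjusted p = 0.153) in morphine males and was not called. It was called in saline males without library K (0.75) or L (0.70), and in morphine males without library I (0.70) or J (0.71). With all libraries it was called in both under total count alone (0.96 and 0.79), log2 total count as a covariate (0.66 and 0.71) and a minimum of 10 counts in every library (0.68 and 0.63), and in morphine males also with the joined TMM factor (0.70). For miR-10a, the reads of the 5p arm per read of the 3p arm numbered 429 in F0_SAL and 509 after saline abstinence, and 510 in F0_MOR and 437 after morphine abstinence.

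The rows not tested were close to the limit of detection. Over all libraries of a group, miR-99a-3p had 15 reads over 4 of 7 F0_SAL libraries, 10 over 2 of 7 F0_MOR libraries, 40 over 4 of 5 F0_ABS-SAL libraries and 43 over 6 of 6 F0_ABS-MOR libraries. No read of miR-100-3p was counted in the 14 nonabstinent libraries. It had 7 reads over 2 of 5 F0_ABS-SAL libraries and 6 reads in 1 of 6 F0_ABS-MOR libraries. The matrix holds no count of 1, so a single read is listed as 0.

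On CPM, 0 of the 8 rows had groups that did not overlap in either timepoint comparison, against 6.94% of all miRNAs in saline (4.73% higher, 2.21% lower) and 3.47% in morphine males (1.89% higher, 1.58% lower). The differences between the timepoint effects of both treatments were tested as the interaction, the log2 fold change in saline males minus that in morphine males. For no member was it called, and it was called for 0% of the 317 miRNAs by edgeR, with 10 at an unadjusted p under 0.05 and 0 called and 11 unadjusted by DESeq2. The largest was that of miR-100-5p, 0.77 ± 0.37 (SE; edgeR adjusted p = 0.953), and that of miR-10a-5p was 0.45 ± 0.28 (SE; edgeR adjusted p = 0.953). That more rows were called in saline than in morphine males is therefore not a tested difference.

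Most cluster partners of the members lay above 0 in both timepoint comparisons, as most members did, while let-7a-5p fell. A list of 13 rows of let-7 and miR-125 names held 10 that were tested, and in saline males 4 were higher after abstinence and 1 lower, with a median log2 fold change of 0.64. In morphine males 1 was higher and 1 lower, with a median of 0.17. Of the 10 tested, 7 had log2 fold changes above 0 in saline males and 7 in morphine males. Both let-7a-1-3p and let-7c-2-3p on that list had nearly the same values, -0.45 in saline males, and are not of the clusters of the members. They are kept in these counts and medians, and with let-7a-5p they were the rows under 0 in both comparisons.

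Next to miR-99a, miR-125b-2-3p had a log2 fold change of 1.47 ± 0.27 (SE; edgeR adjusted p = 0.000369) in saline males, and let-7c-5p one of 0.49 ± 0.26 (SE; edgeR adjusted p = 0.144). In morphine males miR-125b-2-3p had 0.60 ± 0.26 (SE; edgeR adjusted p = 0.102) and let-7c-5p 0.17 ± 0.25 (SE; edgeR adjusted p = 0.694), neither called. The row of miR-125b-5p, which the miR-99a and miR-100 clusters both encode, rose by 0.93 ± 0.27 (SE; edgeR adjusted p = 0.0128) in saline and by 0.64 ± 0.26 (SE; edgeR adjusted p = 0.0844) in morphine males. Next to miR-100, miR-125b-1-3p rose by 1.07 ± 0.41 (SE; edgeR adjusted p = 0.0481) in saline males. By contrast let-7a-5p, which is encoded at several loci, one of them beside miR-100, fell in both, with log2 fold changes of -0.85 ± 0.25 (SE; edgeR adjusted p = 0.0128) and -0.80 ± 0.23 (SE; edgeR adjusted p = 0.0197). Next to miR-99b, let-7e-5p rose by 0.80 ± 0.22 (SE; edgeR adjusted p = 0.0100) in saline males, whereas miR-125a-5p had 0.41 ± 0.34 (SE; edgeR adjusted p = 0.351) and miR-99b-5p itself was not called. In morphine males miR-125b-1-3p had 0.56, let-7e-5p 0.22 and miR-125a-5p 0.16, and none was called.

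Among the other Hox cluster miRNAs, 2 of 6 rows passed the filter, and 1 of them was higher in saline males and 0 in morphine males. It was miR-196b-5p, at 41.3 ± 29.1 CPM (SD, n = 7) in F0_SAL and 92.9 ± 27.2 CPM (SD, n = 5) in F0_ABS-SAL, with a log2 fold change of 1.18 ± 0.35 (SE; edgeR adjusted p = 0.0150). Its log2 fold change in morphine males was 0.65 ± 0.34 (SE; edgeR adjusted p = 0.174), and that of miR-196a-5p was 0.73 ± 0.43 (SE; edgeR adjusted p = 0.185) in saline males. The miR-196 rows were scarce beside the miR-10 rows, with group means of 36.1 to 92.9 CPM.

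**Figure D4:**
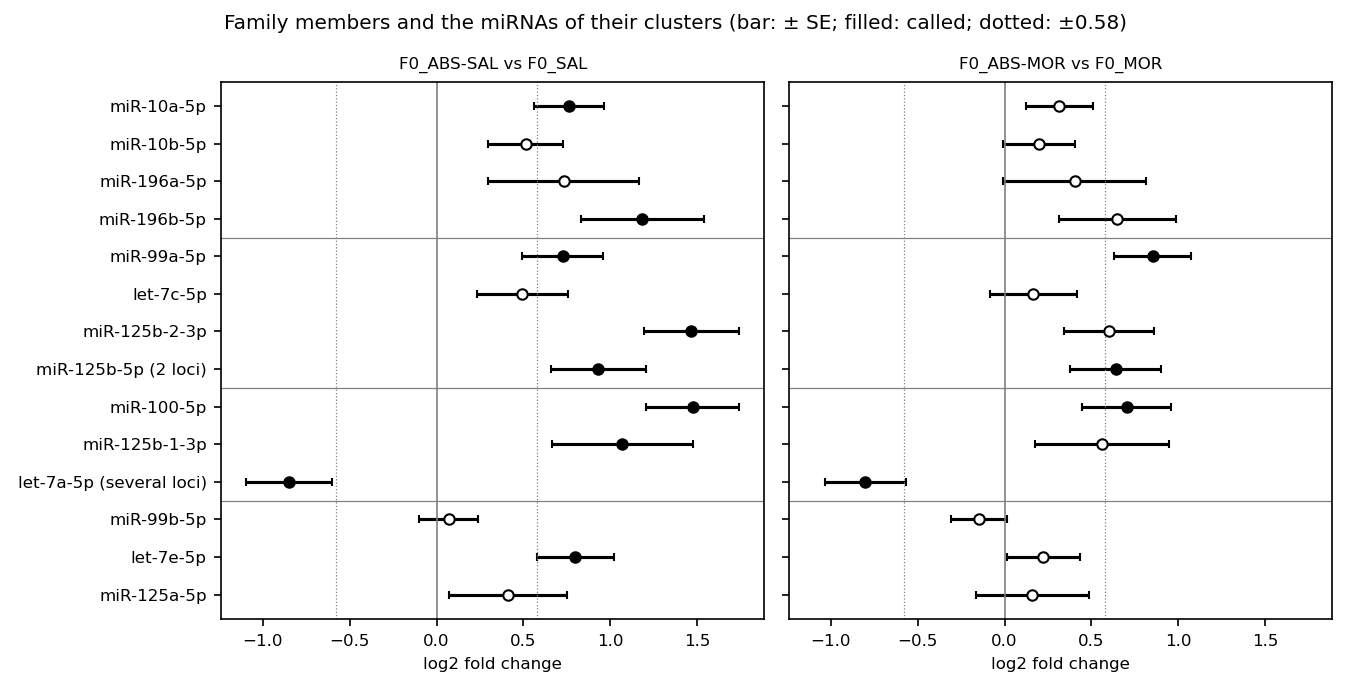
Points give the log2 fold change (x axis) of the members and of the leading miRNAs of their genomic clusters, with ± SE bars, filled where called, for F0_ABS-SAL vs F0_SAL (left) and F0_ABS-MOR vs F0_MOR (right), and lines part the Hox clusters, miR-99a, miR-100 and miR-99b. In both comparisons let-7a-5p, at -0.85 and -0.80, lies to the left of 0 while miR-100-5p, at 1.47 and 0.70, lies to the right.

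Ratios of 2 rows within a library do not depend on how libraries are scaled. For 3 of them the log2 ratio of counts was compared in the 4 comparisons with two-sided exact permutation tests, adjusted over these 12 tests. The ratio of miR-99b-5p to miR-99a-5p had a median of 0.0571 in F0_SAL and 0.0523 in F0_MOR, and of 0.0320 in F0_ABS-SAL and 0.0259 in F0_ABS-MOR. In saline males the log2 ratio was lower after abstinence by 0.71 in mean (-4.94 against -4.22; exact permutation p = 0.0101, adjusted p = 0.0606), with all 5 abstinent libraries below the F0_SAL mean. In morphine males the difference was -0.91 (-5.08 against -4.18; exact permutation p = 0.00350, adjusted p = 0.0420), with all 6 abstinent libraries below the F0_MOR mean. The morphine difference passed 0.05 and the saline one only 0.1, the threshold used for miRNAs. Both passed 0.1 with any 1 library left out, at adjusted p from 0.0260 to 0.0970 in saline and from 0.0303 to 0.0606 in morphine males, but not with medians in place of means.

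The log2 ratio of miR-99a-5p to miR-100-5p averaged 4.29 ± 0.40 (SD, n = 7) for F0_SAL against 3.59 ± 0.45 (SD, n = 5) after saline abstinence. For F0_MOR it averaged 3.85 ± 0.49 (SD, n = 7), against 3.82 ± 0.52 (SD, n = 6) after morphine abstinence. The saline difference of -0.70 (exact permutation p = 0.0227, adjusted p = 0.0909) passed 0.1, not 0.05. It passed 0.1 in only 2 of 12 fits with a library left out, those without F0_SAL library H (adjusted p = 0.0260) or F0_ABS-SAL library Y (adjusted p = 0.0970), and in the others the adjusted p lay between 0.104 and 0.218. In morphine males the difference was -0.03 (exact permutation p = 0.915, adjusted p = 0.915). The counts of miR-99a-5p in F0_SAL were 12.1 to 25.7 times those of miR-100-5p. Reads shared between these rows could shift this ratio, which was not tested.

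The ratio of miR-10a-5p to miR-10b-5p stayed near 1. Its median was 1.02 in both nonabstinent groups, 1.18 after saline and 1.13 after morphine abstinence, with library values from 0.733 to 1.29. Of its 4 differences the largest was 0.24 on the log2 scale, in saline males (exact permutation p = 0.119, adjusted p = 0.285), and none passed the threshold. Reads counted in both rows would bring this ratio nearer to 1, which was not tested.

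**Figure D5:**
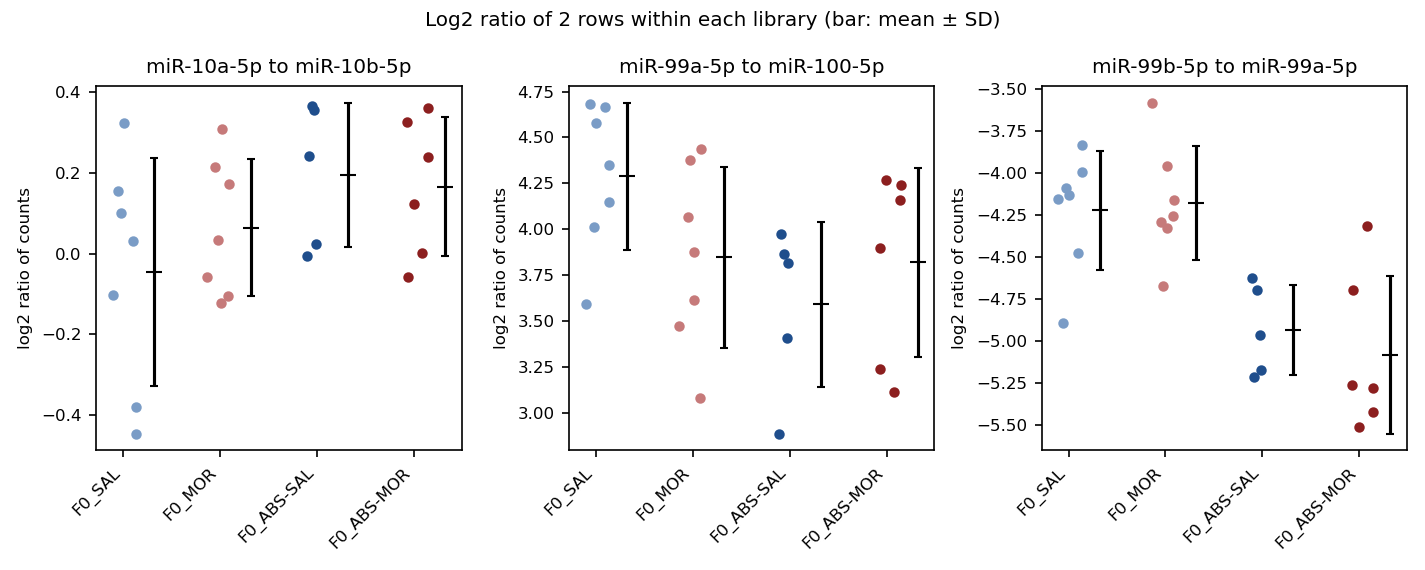
Points give the log2 ratio of counts of 2 rows in each library (y axis) by group (x axis), with the mean ± SD beside them. The ratio of miR-99b-5p to miR-99a-5p has means of -4.94 and -5.08 in the abstinent groups, below -4.22 and -4.18 in the nonabstinent groups, while the ratio of miR-10a-5p to miR-10b-5p lies around 0 in all 4.

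The treatment comparisons, F0_MOR vs F0_SAL and F0_ABS-MOR vs F0_ABS-SAL, address the effect of morphine at each timepoint. Neither called a member, and neither called any of the 317 miRNAs (0%) by edgeR, which left 23 and 4 at an unadjusted p under 0.05. DESeq2 called 0 in both, with 30 and 5 at an unadjusted p under 0.05, and limma-voom called 1 and 0. In F0_MOR vs F0_SAL the 8 rows had log2 fold changes from 0.03 to 0.57 with a median of 0.22, against 0.06 for all miRNAs, and those of miR-99a-5p, miR-10b-5p and miR-10a-3p turned negative under another scaling or filter. The largest, that of miR-100-5p, was 0.57 ± 0.25 (SE; edgeR adjusted p = 0.547), and it was 0.27 without the F0_MOR library M, which held 2607 CPM against 1304 CPM in the next. For miR-10a-5p the log2 fold change was 0.27 ± 0.19 (SE; edgeR adjusted p = 0.730).

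At the abstinent timepoint the log2 fold changes of the 8 rows lay between -0.21 and 0.17, with a median of -0.10 against -0.01 for all miRNAs. The means of miR-100-5p were 2084 ± 240 CPM (SD, n = 6) in F0_ABS-MOR and 2402 ± 909 CPM (SD, n = 5) in F0_ABS-SAL, with a log2 fold change of -0.20 ± 0.28 (SE; edgeR adjusted p = 1.00). For miR-99a-5p it was 0.17 ± 0.24 (SE; edgeR adjusted p = 1.00), with 31285 ± 11559 CPM (SD, n = 6) against 27743 ± 5543 CPM (SD, n = 5). These values do not show that the treatments were alike.

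The miRNAs whose levels ran most like the members were found by the SD over the 25 libraries of the log2 ratio to the member. This is a description over libraries that differ in depth and timepoint, and a timepoint difference common to both rows does not add to the SD. The closest pair of rows in the family was miR-10a-5p and miR-10b-5p, with an SD of 0.219, and 0 of 309 other miRNAs lay closer to either. Reads counted in both rows would lower this SD, which was not tested. The 3p rows of miR-10a and miR-10b were likewise closer to each other, at 0.327, than any other miRNA was to either. Next to miR-10a-3p came miR-26a-5p (0.349) and miR-221-3p (0.386), and next to miR-10b-3p came miR-221-3p (0.397) and miR-27a-3p (0.412). Outside the family, miR-10a-5p ran closest to miR-378a-3p (0.230) and miR-181a-5p (0.266), and miR-10b-5p to miR-181a-5p (0.276) and miR-378a-3p (0.279). The median SD of other miRNAs to miR-10a-5p was 0.709.

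For miR-100-5p the closest rows were miR-125b-2-3p, at 0.233, and miR-125b-5p, at 0.305, against a median of 0.941 over the 309 other miRNAs. Although miR-125b-5p can come from the cluster of miR-100, miR-125b-2-3p comes from the cluster of miR-99a. The row of miR-99a-5p itself ran closest to miR-24-2-5p (0.277) and miR-218a-5p (0.301), and stood at 0.507 from miR-100-5p, with 21 other miRNAs closer to it. For miR-99b-5p they were miR-30d-5p (0.237) and miR-151-3p (0.251), and 236 of 309 other miRNAs lay closer to it than its own 3p row did, at 0.792. The 3p row held few reads, 5 to 18 per library in F0_SAL, so that counting error adds to this SD. That 3p row, miR-99b-3p, had miR-125b-2-3p (0.563) and miR-139-5p (0.576) as its closest. With group means removed, and again outside the family, miR-125b-2-3p remained the closest to miR-100-5p and miR-99b-3p, miR-378a-3p to miR-10a-5p and miR-30d-5p to miR-99b-5p. The closest changed to miR-218a-5p for miR-99a-5p, to miR-378a-3p for miR-10b-5p, to miR-1839-5p for miR-10a-3p and to miR-27a-3p for miR-10b-3p.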

How the data were processed

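The authors prepared smRNA libraries with the NEBNext small RNA kit, used forward reads, and ran sRNAbench against Rnor_6.0, assigning reads to miRBase before Ensembl ncRNAs. The deposited values are raw read counts for mature miRNAs and, separately, ncRNA transcripts, and the submitters' processing notes name DESeq2 and rn6. Columns carry a letter, REG or TO, and SAL or MOR. Group sizes (7, 7, 5 and 6) tie REG to the nonabstinent and TO to the abstinent males, which is an inference, and columns were assigned to groups only. No column was left out.

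Counts were analysed in R 4.3.3 with edgeR 4.0.16 (quasi-likelihood test, TMM, filterByExpr over the 4 groups, 1 model of 4 groups). The cutoffs of adjusted p and fold change are those of the study's methods. Adjusted p-values are Benjamini-Hochberg values over all 317 miRNAs tested. The SE of a log2 fold change is its size over the square root of the F statistic, an approximation. Ratios within a library used counts with 2 added to each, compared with exact permutation tests (scipy 1.17.1). For these the threshold of 0.1 was taken over from the miRNA tests after the data had been seen. Alternatives were DESeq2 1.42.0, limma-voom (limma 3.58.1), other normalizations, filters and thresholds, adding log2 total count to the model, and fits that left out 1 library at a time. The ncRNA counts were used only for the joined TMM factors.

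Named were all members, their cluster partners, the other Hox cluster miRNAs and, for each member tested, the 2 most alike miRNAs. Members and lists were chosen with earlier results of these data known. Counting minimum and depth limit precision: no count was 1, and the smallest above 0 was 2.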

Additional observations from a re-analysis of the deposited data

Results flagged for a closer look

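Of 76 combinations of a measure and a group, 5 had a highest or lowest library farther from the next than Dixon's 95% critical value allows, where chance alone flags about 3.8. On the log2 CPM scale, miR-100-5p was highest in F0_MOR library M, at 11.35 against 10.35 in the next library. The same library held the highest share of family reads in F0_MOR, 6.60% against 4.51% in the next. The lowest F0_SAL library for miR-10a-3p was F, at 3.48 on the log2 CPM scale against 4.45 in the next. The summed leukocyte markers were highest in F0_ABS-SAL library E, at 11.40 on the log2 CPM scale against 11.04. The summed erythroid markers were highest in F0_SAL library V, at 11.42 on the log2 CPM scale against 10.30. None of these libraries was removed from the results given above, and the cause of their distance was not tested.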

How the results depend on the processing

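No paired analysis was possible because the columns carry no replicate number. With any 1 library left out, the members called in saline males between timepoints numbered 3 to 6 (3 without library R of F0_ABS-SAL, when miRNAs called fell from 105 to 65), and in morphine males 2 to 3. In morphine males 4 members were called with log2 total count as a covariate and 1 at an adjusted p under 0.05, when 43 miRNAs in place of 67 were called. In F0_MOR vs F0_SAL, limma-voom and the fit without F0_SAL library H called 1 miRNA in place of 0. The calls of miR-99a-5p in both timepoint comparisons, and those of miR-100-5p and miR-99b-3p in saline males, held in every setting in which they were fitted. The call of miR-100-5p in morphine males held except at an adjusted p under 0.05. With a minimum of 10 counts in every library, miR-99b-3p and miR-10b-3p were not tested.

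Log2 fold changes that changed sign all lay near 0. For F0_MOR vs F0_SAL these were miR-99a-5p with the joined TMM factor (-0.062), without a filter (-0.0084) and with the covariate (-0.089), miR-10b-5p with the joined factor (-0.013), and miR-10a-3p with DESeq2 (-0.0018), the joined factor (-0.11), no filter (-0.029) and the covariate (-0.074). For F0_ABS-MOR vs F0_ABS-SAL they were miR-99a-5p with limma-voom (-0.0011) and miR-10a-3p without a filter (-0.013) and with the covariate (-0.026). For F0_ABS-MOR vs F0_MOR it was miR-99b-5p with total count alone (0.055). For the interaction they were miR-99a-5p with limma-voom (0.074) and miR-10a-3p with DESeq2 (-0.032), DESeq2 size factors (-0.033), the joined factor (-0.11), no filter (-0.016) and the covariate (-0.049).

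With 1 library left out, the ranges that crossed 0 were, for F0_MOR vs F0_SAL, -0.073 to 0.19 for miR-99a-5p, -0.0073 to 0.21 for miR-10b-5p and -0.11 to 0.11 for miR-10a-3p. For F0_ABS-MOR vs F0_ABS-SAL they were -0.27 to 0.028 for miR-10a-5p, -0.21 to 0.0024 for miR-10b-5p, -0.15 to 0.012 for miR-99b-5p, -0.13 to 0.22 for miR-10a-3p and -0.22 to 0.14 for miR-10b-3p. For F0_ABS-SAL vs F0_SAL the range was -0.043 to 0.16 for miR-99b-5p, and for the interaction -0.24 to 0.17 for miR-10a-3p.

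With the difference of medians, the log2 ratio of miR-99b-5p to miR-99a-5p was -0.84 (adjusted p = 0.152) in saline and -1.02 (adjusted p = 0.140) in morphine males by exact permutation, and -0.13 in F0_MOR vs F0_SAL, where the sign turned. The ratio of miR-99a-5p to miR-100-5p was -0.53 in saline (exact permutation adjusted p = 0.444) and 0.15 in morphine males, where the sign turned. With 1 library left out, the latter ratio ran from -0.82 to -0.52 in saline males, from -0.56 to -0.31 in F0_MOR vs F0_SAL, where it passed 0.1 without library H, and from -0.16 to 0.11 in morphine males between timepoints. The ratio of miR-99b-5p to miR-99a-5p ran from -0.066 to 0.13 in F0_MOR vs F0_SAL, and that of miR-10a-5p to miR-10b-5p from -0.081 to 0.014 in F0_ABS-MOR vs F0_ABS-SAL. The causes of these shifts were not tested.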
